A study of Mus musculus with 6 samples.

Results

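Gdf15, Fgf21, Metrnl, Fstl1, Fstl3, Mstn, Inhba and Inhbb, 8 genes for proteins that stressed heart or muscle can secrete, were chosen by name from the 54532 genes in the deposited table of mouse hearts. All 8 had a row of their own. The RNA came from whole hearts of mice aged 15 days, in 2 groups of 3 hearts. The control mice were Nat10flox/flox, with both copies of Nat10 floxed and no deletion labelled (flox). The mice of the other group carried the label of a Nat10 knockout specific to cardiomyocytes (CKO). The sources used here give neither the Cre driver and its promoter nor whether the flox mice carried a Cre. Nat10 encodes an RNA acetyltransferase, and the series asks what its loss does to the developing heart.

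GDF15 is a distant member of the TGF-beta family that many cell types secrete under stress, and it acts on feeding through the receptor GFRAL, with the kinase RET, in the hindbrain. FGF21 is a hormone-like growth factor, made mostly by the liver, that needs beta-Klotho beside an FGF receptor. Activins, dimers of the beta subunits encoded by Inhba and Inhbb, and myostatin, encoded by Mstn, signal through type II receptors, the kinase ALK4 or its relatives and SMAD2 and SMAD3. FSTL3 binds activins and myostatin outside the cell and keeps them from their receptors, whereas its relative FSTL1 is a matrix-associated glycoprotein of mesenchymal cells, and METRNL is a factor of muscle, fat and macrophages.

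Levels are in FPKM, fragments counted per gene and scaled by its length and by library size, so they can be set side by side between genes. Changes are differences of log2(FPKM + 1), CKO minus flox, with standard errors, from limma, a linear model fitted across genes. They understate the change of low genes. A gene was tested when its mean over the 6 hearts was at least 1 FPKM, which 12469 genes met, and was called when its two-sided Benjamini-Hochberg adjusted p over all of them was under 0.05. Each group has 3 biological replicates per the labels, and the values of a group are given in the order of replicates 1, 2 and 3.

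In the hearts labelled CKO, Gdf15, Fstl1, Fstl3, Inhba and Inhbb rose, Metrnl did not pass the test, and Fgf21 and Mstn were close to undetected in every heart. Of the 8 genes, 6 were tested and 5 of these were called higher and 0 lower, whereas 6.93% of all tested genes were called higher and 7.19% lower. The 8 genes were chosen with earlier results of these data known, so this contrast is not a test of the set. Every CKO heart lay above every flox heart for the same 5 genes, which held for 19.7% of all tested genes. Fstl3, Inhba and Inhbb reached the expression filter only through their CKO hearts, so they had to differ to be tested. A count model with a lower filter (voom on counts recovered from the FPKM, at least 10 over the 6 hearts) also tested 6 of the 8 and called the same number, 5, higher, where 7.74% of its 19798 genes were called higher. With limma on all 28188 genes above 0, 4 of the 8 were called higher against 1.12% of all, and the call of Inhbb was lost.

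**Figure D1:**
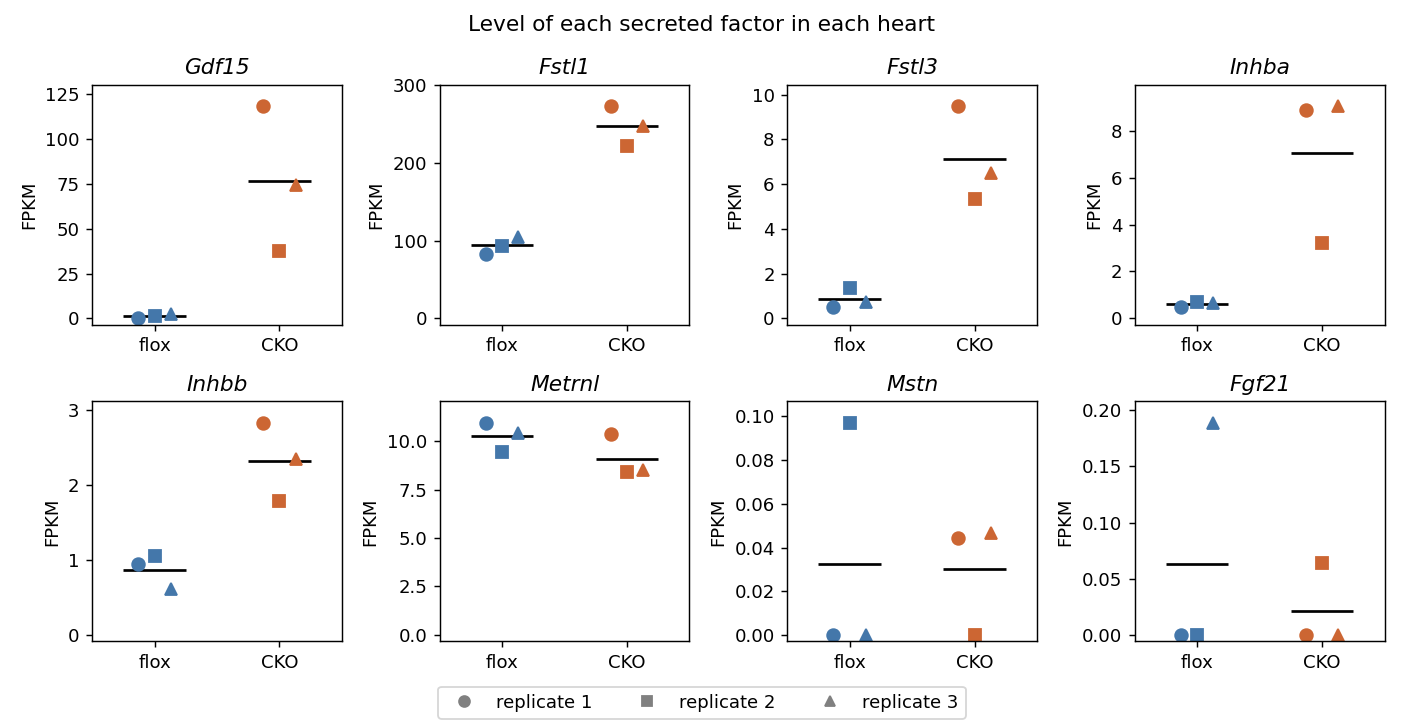
Level in FPKM (vertical axis, a linear scale of its own for each gene) of the 8 genes in each flox and CKO heart; 1 symbol is 1 heart, its shape gives the replicate number, and the horizontal line is the group mean of 3 hearts. The CKO hearts stand clear of the flox hearts for Gdf15, Fstl1, Fstl3, Inhba and Inhbb, and CKO replicate 2 is the lowest CKO heart for each of these 5.

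The bases before the start sites of 4 of the genes are shown because these genes cover the outcomes seen here: Gdf15, with the largest rise, Fstl3 and Inhba, which had the nearest profiles among the members that rose, and Fgf21, often named beside Gdf15 as a stress hormone and barely detected here. Each run is the 250 bases before the start, 5′ to 3′ on the strand of the gene, from RefSeq on build GRCm38.p6. Capitals mark matches, on either strand, to 8 searched motifs: the ATF4-CEBP composite TGATGNAA, the AP-1 site TGANTCA, the cyclic AMP element TGACGTCA, the E-box CACGTG, the GC box GGGCGG, the SMAD box CAGACA, the TATA box TATAAA and the p53 decamer.
Gdf15 promoter, chr8:70632457-70632706, minus strand: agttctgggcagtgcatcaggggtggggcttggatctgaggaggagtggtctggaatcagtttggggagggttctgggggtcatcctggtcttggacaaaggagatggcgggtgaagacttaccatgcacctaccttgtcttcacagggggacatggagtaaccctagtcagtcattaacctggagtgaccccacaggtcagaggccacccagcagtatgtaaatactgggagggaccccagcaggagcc
Fstl3 promoter, chr10:79777024-79777273, plus strand: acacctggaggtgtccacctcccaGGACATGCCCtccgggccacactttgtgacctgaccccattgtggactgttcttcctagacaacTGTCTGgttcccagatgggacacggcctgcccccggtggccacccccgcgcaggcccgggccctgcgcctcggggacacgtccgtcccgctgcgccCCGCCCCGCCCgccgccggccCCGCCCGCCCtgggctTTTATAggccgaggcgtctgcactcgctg
Inhba promoter, chr13:16011601-16011850, plus strand: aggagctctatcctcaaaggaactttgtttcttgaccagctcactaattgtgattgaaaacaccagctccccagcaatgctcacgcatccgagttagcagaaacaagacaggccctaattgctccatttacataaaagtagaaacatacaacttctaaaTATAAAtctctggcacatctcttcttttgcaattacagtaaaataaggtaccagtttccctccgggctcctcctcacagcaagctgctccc
Fgf21 promoter, chr7:45615491-45615740, minus strand: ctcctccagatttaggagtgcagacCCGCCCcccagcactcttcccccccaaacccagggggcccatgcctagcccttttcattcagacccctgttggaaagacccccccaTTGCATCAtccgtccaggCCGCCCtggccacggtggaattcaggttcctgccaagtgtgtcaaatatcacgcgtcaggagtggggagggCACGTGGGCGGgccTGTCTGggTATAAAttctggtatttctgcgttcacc

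The Gdf15 run held 0 of the 8 motifs. RefSeq gives Gdf15 another start site, 361 bases farther along the gene, and the 250 bases before that start held 1 match, an E-box from position -83 to -78 counted from the start. The Fstl3 run was the richest in G and C of the 4, at 71.2% against a median of 52.4% over all 32851 promoters. It held 7 matches: a p53 decamer at -226 to -217, a SMAD box, 4 GC boxes in 2 overlapping pairs and a TATA box read on the opposite strand. The Inhba run, at 43.2% G and C, held 1 match, a TATA box at -91 to -86. In the Fgf21 run there were 7 matches, among them the ATF4-CEBP composite at -139 to -132, read on the opposite strand, an E-box that shares a base with a GC box, and a TATA box at -28 to -23. Over all promoters of the same length, the ATF4-CEBP composite was present in 3.45%, the AP-1 site in 6.75%, the cyclic AMP element in 1.55%, the E-box in 6.02%, the GC box in 32.7%, the SMAD box in 17.1%, the TATA box in 12.4% and the p53 decamer in 7.13%. A match is a run of letters and was not tested as a binding site.

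Recovered counts summed to between 15048038 and 16280061 per heart, and 1761 of the 12469 genes (14.1%) were called in either direction. That number fell to 364 without flox replicate 1, 478 without flox replicate 2 and 755 without CKO replicate 3. The median log2 change of all tested genes was -0.0013 and 49.1% of calls were higher in CKO. Scaling by TPM moved the median up by 0.13 and the share of higher calls to 69.0%, total counts gave 0.11 and 66.4%, and voom gave 0.14 and 65.5%, while 5 of the 8 genes were called under each. On the first principal component, with 64.0% of the variance, flox hearts lay at -38.7, -31.0 and -19.1 and CKO hearts at 50.0, 14.9 and 23.9, so CKO replicate 2 lay nearest to the flox hearts. Nat10 itself was at 3.87, 3.78 and 4.57 FPKM in flox hearts and 3.69, 3.75 and 4.18 FPKM in hearts labelled CKO (log2 change -0.06 ± 0.12, limma adjusted p = 0.768). The targeted gene was therefore not shown to be lower in the hearts labelled CKO, the sources used here do not give the floxed part of the gene, and the groups below are named by their labels.

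Gdf15 (ENSMUSG00000038508) lies on the minus strand of chromosome 8 at 70629393 to 70632456 (GRCm38), and its longest coding transcript has 2 exons and 303 codons. It was at 0.386, 1.53 and 2.65 FPKM in the flox hearts, against 118, 37.5 and 74.1 FPKM in the CKO hearts. The lowest CKO heart was far above the highest flox heart, and the CKO hearts also differed widely among themselves. Behind these levels stood 10, 43 and 82 counts in the flox hearts, with exact Poisson 95% intervals of 4.8 to 18.4 for the lowest and 65.2 to 102 for the highest, so the flox hearts differed among themselves by more than counting error. The CKO hearts held 3666, 1141 and 2173 counts. Means were 1.52 ± 1.13 FPKM in flox and 76.7 ± 40.5 FPKM in CKO (SD, n = 3 each). The log2 change was 4.91 ± 0.47 (limma adjusted p = 0.00286), which is 30.0-fold on the FPKM + 1 scale. Only 1 of the 12469 tested genes, Nppa, rose more on this scale, and voom, which works on counts, gave 5.99 ± 0.70, with a 95% interval of 4.45 to 7.53 (adjusted p = 0.00104). The exact permutation test over hearts gave p = 0.1, the smallest that 3 hearts against 3 allow. Leaving out 1 heart at a time kept the log2 change of Gdf15 between 4.52 and 5.34, with adjusted p up to 0.0195.

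Fgf21 (ENSMUSG00000030827, minus strand of chromosome 7, 45613886 to 45615490, 210 codons) was close to 0 in every heart. Its recovered counts were 0, 0 and 3 in the flox hearts and 0, 1 and 0 in the CKO hearts. That is 4 hearts of 6 with no count and no heart above 0.189 FPKM, in both groups. A gene of this length needs 0.189 to 0.225 FPKM for 3 counts in these libraries, so Fgf21 did not exceed that floor in any heart, no fold is given, and a change was not detectable at this depth. Hepatocyte markers were measured beside it, since the liver makes most FGF21. Summed over 8 genes, they ranged from 0.596 to 2.37 FPKM in flox and were at 35.8, 0.665 and 2.27 FPKM in CKO. CKO replicate 1 alone stood out, with Alb at 18.2 FPKM and Fgf21 at 0, and the other CKO hearts lay within the flox range.

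Fstl1 (ENSMUSG00000022816, plus strand of chromosome 16, 37776873 to 37836514, 11 exons, 306 codons) was the most abundant of the 8 genes in every heart. It was at 83.3, 92.9 and 105 FPKM in the flox hearts, against 273, 221 and 247 FPKM in the CKO hearts. The groups were well apart, with a tight spread in each. Means were 93.8 ± 10.97 FPKM in flox and 247 ± 25.8 FPKM in CKO (SD, n = 3 each). The log2 change of 1.39 ± 0.15 (limma adjusted p = 0.0038) was 2.62-fold on the FPKM + 1 scale and ranked 156 among all rises. Fstl1 is known as a product of fibroblasts, and 10 fibroblast markers were measured beside it: their summed level was 795 to 1073 FPKM in flox and 1112 to 1489 FPKM in CKO, their median log2 change was 0.47, and Mfap5, Tcf21, Col1a2 and Col1a1, 4 of the 10, were called higher and 0 lower. The share called higher over all tested genes was 6.93%. That count of 4 was 0 without flox replicate 1 (adjusted p of 0.0624 to 0.118 for Mfap5, Tcf21, Col1a2 and Col1a1) and with the replicate block, 2 without flox replicate 2 or CKO replicate 3, and 1 without the expression filter. In RNA from whole hearts, more cells of a type and more RNA per cell cannot be told apart, and the part of the fibroblast markers in the rise of Fstl1 was not tested.

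Fstl3 (ENSMUSG00000020325, plus strand of chromosome 10, 79777272 to 79782630, 5 exons, 256 codons) was low in flox hearts, at 0.497, 1.34 and 0.735 FPKM. In the CKO hearts it was at 9.49, 5.35 and 6.51 FPKM. All CKO hearts exceeded all flox hearts, and the recovered counts were 17 to 50 per flox heart and 215 to 388 per CKO heart. Means went from 0.858 ± 0.437 to 7.12 ± 2.13 FPKM (SD, n = 3 each), a log2 change of 2.12 ± 0.23 (limma adjusted p = 0.0038) that ranked 51 among all rises. On counts, voom gave 3.25 ± 0.40 (adjusted p = 0.00121). Fstl3 overlaps Prss57 on the opposite strand, and the sources used here do not say whether counting used strand, but Prss57 did not exceed 0.168 FPKM in any heart.

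Inhba (ENSMUSG00000041324, plus strand of chromosome 13, 16011851 to 16031621, 5 exons, 424 codons), the subunit of activin A, was at 0.470, 0.699 and 0.637 FPKM in the flox hearts. In the CKO hearts it was at 8.88, 3.23 and 9.06 FPKM. CKO replicates 1 and 3 were alike and replicate 2 lower, yet still above every flox heart. The flox mean was 0.602 ± 0.119 FPKM and the CKO mean 7.05 ± 3.31 FPKM (SD, n = 3 each). The log2 change was 2.23 ± 0.32 (limma adjusted p = 0.00854), rank 41 among all rises, and 3.55 ± 0.49 by voom (adjusted p = 0.00212). The gene overlaps Gm48444 and B230303A05Rik on the opposite strand, which did not exceed 0.331 and 0.0174 FPKM.

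Inhbb (ENSMUSG00000037035, minus strand of chromosome 1, 119415465 to 119422248, 2 exons, 411 codons), the subunit of activin B, rose least of the 5. It was at 0.941, 1.05 and 0.605 FPKM in the flox hearts, against 2.82, 1.79 and 2.35 FPKM in the CKO hearts. The groups did not overlap, though the gap between them was small in FPKM. Its log2 change of 0.83 ± 0.17 (limma adjusted p = 0.0237) ranked 672 among all rises, and voom gave 1.57 ± 0.29 (adjusted p = 0.0071). The call of Inhbb was the least stable of the 5: the limma adjusted p was 0.0798 without flox replicate 1, 0.0614 without flox replicate 2, 0.0520 without CKO replicate 1 and 0.0711 without CKO replicate 3, while the log2 change stayed between 0.72 and 0.95 with 1 heart left out.

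Mstn (ENSMUSG00000026100, plus strand of chromosome 1, 53061640 to 53068079, 376 codons), the brake on muscle growth, had 0, 4 and 0 counts in the flox hearts and 2, 0 and 2 counts in the CKO hearts. Both groups summed to 4 counts and no heart exceeded 0.0971 FPKM, where 3 counts correspond to 0.0663 to 0.0793 FPKM. A change of Mstn was not detectable at this depth. Among 12 markers of skeletal muscle fibres, where Mstn is usually high, Myod1, Myh1 and Myh2 were at 0 in all 6 hearts. The summed level of the 12 was 5.93 to 7.28 FPKM in flox and 14.6 to 19.4 FPKM in CKO, most of it Mybpc2, a myosin-binding protein of fast fibres that rose by 1.49 ± 0.19 (limma adjusted p = 0.00593). The other 11 markers were under the expression filter of limma. Voom tested 5 of the 12 and called 1 higher and 1 lower.

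Metrnl (ENSMUSG00000039208, plus strand of chromosome 11, 121701544 to 121716306, 4 exons, 311 codons) was at 10.9, 9.44 and 10.4 FPKM in the flox hearts, against 10.4, 8.40 and 8.48 FPKM in the CKO hearts. The groups overlapped. The log2 change was -0.16 ± 0.13 with a 95% interval of -0.46 to 0.13 (limma adjusted p = 0.407), and -0.04 with an interval of -0.44 to 0.36 by voom. At 213 to 276 counts per heart, depth did not limit Metrnl as it did Fgf21 and Mstn.

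**Figure D2:**
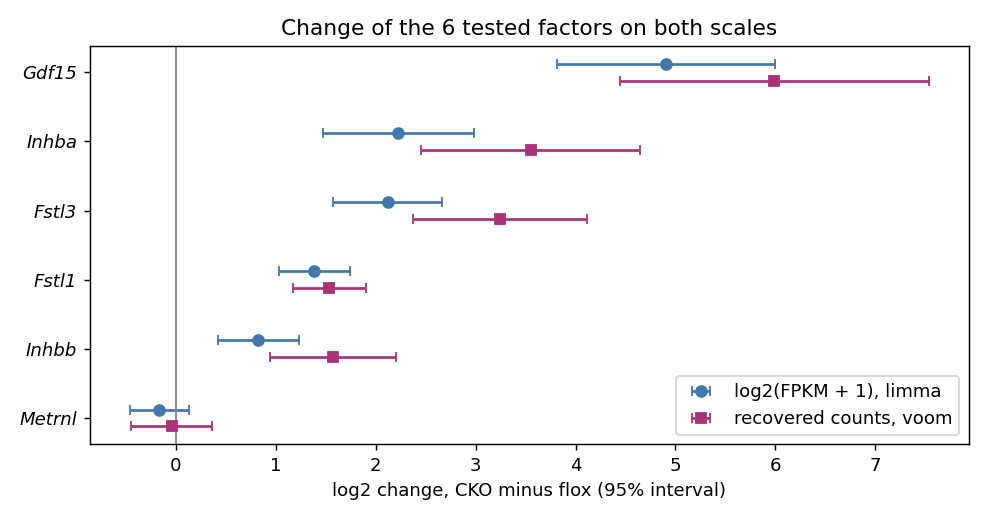
Log2 change of the 6 tested genes (horizontal axis, CKO minus flox), with bars for 95% intervals; circles are limma on log2(FPKM + 1) and squares voom on recovered counts. Both scales place Gdf15 highest, at 4.91 and 5.99, keep the intervals of 5 genes above 0 and have Metrnl across 0, and the squares lie farther out for genes that were low in flox hearts.

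The order of the 8 genes by level differed between the groups. In flox hearts Fstl1 led at 93.8 FPKM, followed by Metrnl at 10.3 FPKM, and each was separate from the next gene. Gdf15, Inhbb, Fstl3 and Inhba followed at means of 1.52 to 0.602 FPKM, with neighbours that overlapped, and Fgf21 and Mstn came last. In CKO hearts Gdf15 had a mean of 76.7 FPKM, below Fstl1 and above Metrnl in every heart. Metrnl, Fstl3 and Inhba overlapped with their neighbours at 9.09, 7.12 and 7.05 FPKM, and Inhbb stood below them at 2.32 FPKM. Of the summed FPKM of the 8 genes, Gdf15 made up 0.400%, 1.43% and 2.20% in the flox hearts and 28.0%, 13.5% and 21.3% in the CKO hearts. The share of Fstl1 was 86.3% to 87.3% in flox hearts and 64.5% to 79.7% in CKO hearts, although its own level was higher there.

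Transcripts of the activin subunits and of the secreted proteins that bind them were both higher in CKO hearts. The summed level of Inhba and Inhbb was 1.41, 1.75 and 1.24 FPKM in the flox hearts, against 11.7, 5.02 and 11.4 FPKM in the CKO hearts. Follistatin, the other activin-binding protein, was low: Fst was at 0.125, 0.200 and 0.0522 FPKM in flox and at 0.886, 0.438 and 0.647 FPKM in CKO. Fst was under the filter of the main test, its groups did not overlap, and voom called it higher (log2 change 2.59 ± 0.53, adjusted p = 0.0121), while limma without a filter did not (adjusted p = 0.0745). Fstl3 and Fst together, divided by Inhba and Inhbb together, gave ratios of 0.441, 0.883 and 0.633 in flox hearts and 0.886, 1.15 and 0.628 in CKO hearts. These ratios overlapped, with means of 0.652 ± 0.222 and 0.889 ± 0.263 (exact permutation p = 0.4). Inhba divided by Inhbb did separate the groups, at 0.499, 0.666 and 1.05 in flox and 3.14, 1.81 and 3.86 in CKO (exact permutation p = 0.1, the smallest possible). Inha, whose subunit turns activins into inhibins, overlapped at 5.03 to 6.98 FPKM in flox and 5.11 to 5.57 FPKM in CKO (log2 change -0.19 ± 0.14, limma adjusted p = 0.384). The ratios were chosen after the values were seen and compare RNA levels only.

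Of the receptor genes for GDF15, 1 had no counts and the other was lower in CKO hearts. Gfral had 0 counts in all 6 hearts, and Ret, the kinase that GDF15 reaches through GFRAL, was at 3.92, 3.12 and 1.80 FPKM in flox and 0.601, 0.405 and 0.645 FPKM in CKO. Every CKO heart was below every flox heart, and the log2 change of Ret was -1.31 ± 0.22 (limma adjusted p = 0.0124, 0.0509 without flox replicate 1 and 0.0551 without flox replicate 2). Ret reached the expression filter only through its flox hearts, so it had to differ to be tested, and its call was lost without the filter. Of 8 genes of FGF21 receptors and endocrine FGFs, 2 were tested and 1 was called, higher. Fgfr1 was at 7.19, 8.04 and 6.28 FPKM in flox and 12.1, 9.56 and 11.04 FPKM in CKO (log2 change 0.54 ± 0.14, limma adjusted p = 0.0391). Klb, for the beta-Klotho that FGF21 needs, did not exceed 0.0629 FPKM. The list of Kit and Dip2a, reported receptors of METRNL and FSTL1, and the METRNL relative Metrn gave 0 calls of 3 tested and a median log2 change of -0.34, with Dip2a at -0.34 ± 0.15 (adjusted p = 0.164). Of 9 receptors and SMADs of activin and myostatin, 8 were tested, 2 were called higher and 0 lower, and the median was -0.23. Over all tested genes, 6.93% were called higher and 7.19% lower. The 2 called were Tgfbr1, a type I receptor of TGF-beta (0.54 ± 0.12, adjusted p = 0.0259), and Smad2, which carries the signal to the nucleus (0.49 ± 0.13, adjusted p = 0.0442). Without flox replicate 1, the adjusted p of Fgfr1 was 0.139, of Tgfbr1 0.0799 and of Smad2 0.142, and these calls were also lost without flox replicates 2 or 3 or CKO replicate 3, at up to 0.159. Without CKO replicate 1, Fgfr1 was at 0.0712 and Smad2 at 0.0783.

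Around the activin genes, Tgfb2 and Tgfb3, ligands that signal through the same SMADs, rose most clearly. Tgfb2 was at 3.90, 4.41 and 3.25 FPKM in flox and 31.3, 19.0 and 30.5 FPKM in CKO (log2 change 2.50 ± 0.21, limma adjusted p = 0.00183). Tgfb3 changed by 0.87 ± 0.12 (adjusted p = 0.00795), and the remaining tested ligands, Tgfb1 and Gdf11, did not pass. Of 11 antagonists, 7 were tested and 1 was called: Bambi, a decoy receptor, was at 2.27, 2.14 and 2.71 FPKM in flox and 9.45, 5.20 and 7.50 FPKM in CKO (log2 change 1.29 ± 0.20, limma adjusted p = 0.00973). Of 7 proteases that process such ligands, 5 were tested and 0 called, and the most abundant, Pcsk6, was at -0.71 ± 0.19 (adjusted p = 0.0502, and 0.0391 without flox replicate 3). Of 10 feedback and target genes of SMAD2 and SMAD3, 9 were tested, 3 were called higher and 0 lower, with a median log2 change of 0.51. Over all tested genes, 6.93% were called higher and 7.19% lower. Pmepa1, which dampens SMAD signalling, changed by 1.07 ± 0.16 (adjusted p = 0.0101), and Tgif1, a corepressor, by 0.64 ± 0.15 (adjusted p = 0.0342). Without flox replicate 1, the adjusted p was 0.0524 for Pmepa1 and 0.136 for Tgif1. Tgif1 also missed the threshold without flox replicate 2 (0.0940), without flox replicate 3 (0.0527), without CKO replicate 1 (0.0642) and without CKO replicate 3 (0.0720).

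Feedback genes of FGF and ERK signalling gave 2 calls, both higher, of 9 tested, with a median log2 change of 0.12. The share called higher over all tested genes was 6.93%. Etv4, an ETS transcription factor, changed by 1.34 ± 0.29 (limma adjusted p = 0.0254), and Spry1, an inhibitor of the pathway, by 0.92 ± 0.23 (adjusted p = 0.0396). Without flox replicate 1 these were at 0.0899 and 0.116, and without flox replicate 2 at 0.0891 and 0.0940. Spry1 also missed the threshold without flox replicate 3 (0.0918), CKO replicate 1 (0.0847) and CKO replicate 3 (0.111).

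Transcription factors known to act on Gdf15 or Fgf21 were mostly not called, with 1 higher and 1 lower of 12 tested and a median log2 change of 0.39. Of all tested genes, 6.93% were called higher and 7.19% lower. Ddit3, which encodes the stress factor CHOP, was at 6.97, 7.44 and 8.25 FPKM in flox and 15.7, 15.5 and 13.7 FPKM in CKO. The groups were clearly apart, with a log2 change of 0.90 ± 0.12 (limma adjusted p = 0.00683). Mlxipl, which encodes the carbohydrate-responsive factor ChREBP, fell by 0.83 on the log2 scale (SE 0.14, adjusted p = 0.0117). Atf4, the shared regulator of many stress genes, was at 0.51 ± 0.19 (adjusted p = 0.119), and Trp53, for p53, at 0.42 ± 0.16 (adjusted p = 0.114), with every CKO heart above every flox heart for both. That separation held for 19.7% of all tested genes. Target genes of ATF4 moved in both directions, with 3 of 16 tested called higher, 2 lower and a median of 0.13. Sesn2, a stress-induced regulator of growth signalling, changed by 1.46 ± 0.15 (adjusted p = 0.00372), and Ddit3 and the serine synthesis gene Phgdh (0.85 ± 0.18, adjusted p = 0.0264) were the other calls upward. The call of Phgdh was lost without flox replicate 1 or flox replicate 2, with the replicate block and without the expression filter. Chac1, which breaks down glutathione, was at -1.79 ± 0.35 (adjusted p = 0.0187) and Aldh1l2, a mitochondrial folate enzyme, at -1.12 ± 0.19 (adjusted p = 0.0135). These falls missed the threshold without flox replicate 1 (0.0760 and 0.0644) and without flox replicate 2 (0.0615 and 0.0585), and Chac1 also without CKO replicate 3 (0.0581). Without the expression filter they were at 0.0706 and 0.0522, and 0 target genes of ATF4 were called lower. Trib3 and Asns, often used as readouts of ATF4, were both at -0.02 (adjusted p = 0.955 and 0.969).

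**Figure D3:**
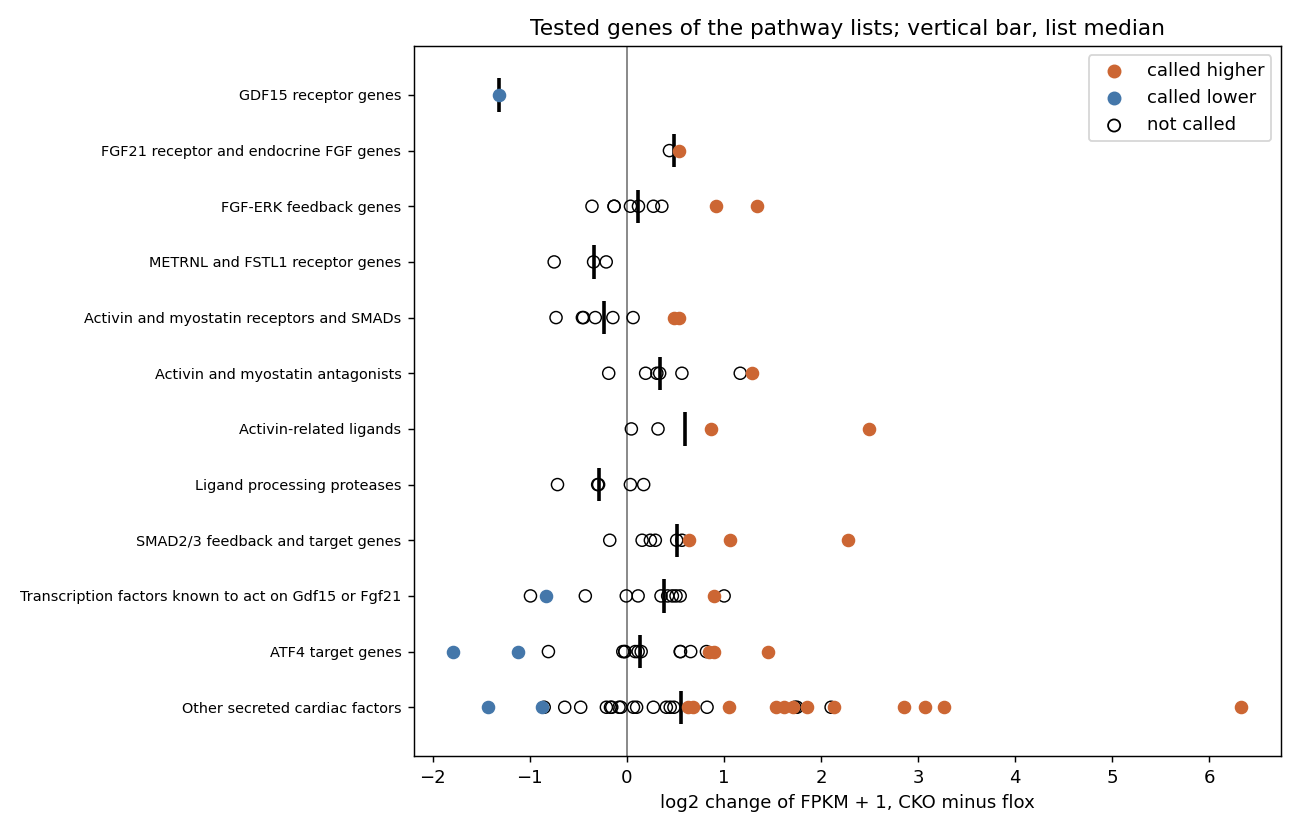
Log2 change of FPKM + 1 (horizontal axis, CKO minus flox) of every tested gene in 12 pathway lists; 1 point is 1 gene, filled where it was called, and the vertical bar is the median of the list. List medians lie between -0.34 and 0.60, apart from the GDF15 receptor list with Ret alone at -1.31, and single genes lie far out, such as Tgfb2 at 2.50 and Nppa at 6.33.

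Among 37 other secreted factors of the heart, 32 were tested, 12 were called higher and 2 lower, with a median log2 change of 0.56 against -0.0013 for all tested genes. The shares over all tested genes were 6.93% higher and 7.19% lower, and this list was chosen with earlier results of these data known. The summed level of the 37 was 559 to 789 FPKM in flox and 2908 to 5871 FPKM in CKO. Nppa alone was at 9.34, 21.6 and 34.8 FPKM in flox and 2399, 1370 and 1319 FPKM in CKO. The 12 calls upward became 6 without flox replicate 1, 8 without CKO replicate 3, 7 with the replicate block and 5 without the expression filter, and the median log2 change ranged from 0.41 to 0.89 over the 17 alternatives. The largest rises were those of Nppa, the atrial natriuretic peptide, at 6.33 ± 0.45 (limma adjusted p = 0.00148), Ctgf, a matrix-associated growth factor, at 3.26 ± 0.52 (adjusted p = 0.0108), Thbs4, a matrix glycoprotein, at 3.08 ± 0.39 (adjusted p = 0.00612), and Nppb, the B-type natriuretic peptide, at 2.85 ± 0.49 (adjusted p = 0.0129). The calls downward were Fgf16, a cardiomyocyte growth factor (-1.43 ± 0.20, adjusted p = 0.00792), and Ctf1, the cytokine cardiotrophin (-0.88 ± 0.17, adjusted p = 0.0187). Lif, a cytokine of the same family as cardiotrophin, went the other way, from 0.197, 0.121 and 0.537 FPKM in flox to 3.56, 3.54 and 3.72 FPKM in CKO (1.86 ± 0.16, adjusted p = 0.00202). Lif reached the expression filter only through its CKO hearts, so it had to differ to be tested.

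The genes most like Gdf15 were ranked by the root-mean-square difference of log2(FPKM + 1) over the 6 hearts, each gene centred on its own mean, so that a gene must match the size of the change as well as its shape. Nearest was Cdkn1a, the p53-induced cell cycle inhibitor p21, at a difference of 0.66, with 9.94, 12.5 and 17.4 FPKM in flox and 229, 154 and 215 FPKM in CKO. Like Gdf15, it was lowest in flox replicate 1 and highest in flox replicate 3, and lowest among CKO hearts in replicate 2. Fstl1 and the first principal component of all tested genes shared these features, so they are not particular to Gdf15 and Cdkn1a. Sprr1a, a cornified-envelope protein also made by injured neurons and heart muscle, was next at 0.74, with no count in any flox heart and 99.7, 14.9 and 13.6 FPKM in CKO. Voom did not call Sprr1a (adjusted p = 0.054). Nppa followed at 0.79, Ctgf at 1.01 and Serpinb1c, a serine protease inhibitor gene, at 1.01. Among the 5 members that rose, Fstl3 and Inhba were the nearest pair, at 0.33, and Gdf15 and Inhbb the farthest, at 2.12. The genes nearest to Fstl1 were Zfp365, Bgn and Adamtsl5, each at 0.08. Those nearest to Fstl3 were Lox, which crosslinks collagen and elastin, at 0.08, Cnksr1 at 0.18 and Eln, for elastin itself, at 0.19. Nearest to Inhba were Rcan1, a calcineurin regulator, at 0.21, Lman1l at 0.22 and Hbegf, an EGF-like growth factor, at 0.24, and nearest to Inhbb were Zfp37, Fbln2 and Bcl2l1 at 0.07 to 0.08. Sprr1a, Serpinb1c, Zfp365, Cnksr1, Lman1l and Zfp37 reached the expression filter only through their CKO hearts, so they had to differ to be tested.

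**Figure D4:**
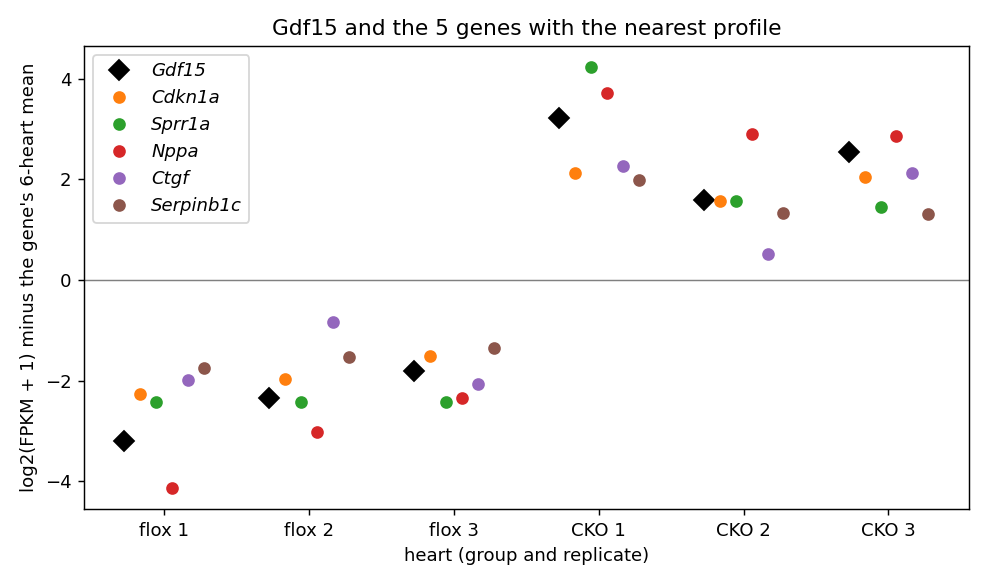
Log2(FPKM + 1) minus the mean of the gene over the 6 hearts (vertical axis) in each flox and CKO heart (horizontal axis) for Gdf15 (diamonds) and the 5 genes nearest to it (circles); points are set side by side within a heart. All 6 genes are below their mean in the flox hearts and above it in the CKO hearts, and Sprr1a stands out in CKO replicate 1.

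Markers of the cells in the heart moved with the groups in part. Summed over 10 genes, cardiomyocyte markers were at 17530 to 22460 FPKM in flox and 13180 to 14470 FPKM in CKO, with a median log2 change of -0.62. Of the 10, 5 were called lower and 0 higher, against 7.19% lower and 6.93% higher of all tested genes. That count of 5 was 0 without flox replicate 1, flox replicate 2 or CKO replicate 3, with the replicate block and without the expression filter, and 2 without CKO replicate 1. Quantile normalization left 2 calls and a median of -0.35, with Myh6 at -0.38 (adjusted p = 0.402) in place of -1.02 and Myl2 at -0.27 (adjusted p = 0.101) in place of -0.68. Tnnt2, for cardiac troponin T, had the largest fall, at -1.13 ± 0.21 (limma adjusted p = 0.0168). Macrophage markers were at 116 to 135 FPKM in flox and 145 to 256 FPKM in CKO. Of these 10 markers, 1 was called higher, Cd68 (0.65 ± 0.16, adjusted p = 0.0346), and 9 were not called, where 6.93% of all tested genes were called higher. Endothelial markers had 0 calls, at 477 to 505 and 397 to 436 FPKM, and smooth muscle and pericyte markers had 1, lower, Abcc9, at 594 to 739 and 462 to 530 FPKM. Without the expression filter, the limma adjusted p was 0.0960 for Cd68 and 0.0784 for Abcc9, and with the replicate block it was 0.0983 and 0.0701. Adipocyte markers did not exceed 0.826 FPKM in sum in any heart. Among the fibroblast calls, Tcf21, a transcription factor of these cells, changed by 1.01 ± 0.20 (adjusted p = 0.0212). Without flox replicate 1, the adjusted p was 0.0762 for Tnnt2, 0.133 for Cd68, 0.0988 for Abcc9 and 0.0857 for Tcf21, and without flox replicate 2 it was 0.0711, 0.122, 0.0861 and 0.0815. Without CKO replicate 3, Tnnt2 was at 0.0561, Cd68 at 0.0677 and Abcc9 at 0.0519, and without CKO replicate 1 Cd68 was at 0.0578. Gdf15, Inhba and Fstl3 had larger log2 changes of FPKM + 1 than any tested marker in these lists, and the part of any cell type in the rise of the secreted factors was not tested.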

How the data were processed

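Per the labels' protocols, total RNA from hearts was extracted with Tripure, poly-T capture selected messenger RNA, and paired ends were read on an Illumina NovaSeq. Tools named in the submitters' processing notes are HISAT2 2.0.5 and featureCounts 1.5.0-p3, besides CASAVA and, at version 1.20.0, DESeq2, and the build is GRCm38. The authors deposited FPKM per gene and heart, with gene lengths. Multiplied by length, 100% of the FPKM above 0 were whole steps of a constant for each heart, within a tolerance of 0.01, so counts were recovered. They show that the deposited FPKM were scaled between hearts by median-of-ratios size factors of 0.893 to 1.07.

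From these FPKM, log2(FPKM + 1) was modelled in R 4.3.3 with limma 3.58.1, with a mean-variance trend, genotype as the only term and all 6 hearts. Genes with a mean of at least 1 FPKM were tested. Alternatives were other pseudocounts, filters, scalings and variance models, voom on recovered counts of genes with at least 10 counts, the replicate number as a block, and each heart left out. The fit was also run on simulated counts with known changes. These had the same dispersion for every gene, so they do not measure how the calls behave at the spread of these hearts. The members and the 20 gene lists (211 symbols, all found) were chosen with earlier results of these data known. Named were all members, up to 4 called genes of each list with the largest change, or its most abundant gene where none was called, and the nearest genes by profile, 5 for Gdf15 and 3 for each other called member. Fst, Inha, Gfral, Klb, Kit, Metrn, Tgfb1, Gdf11, Atf4, Trp53, Phgdh, Trib3, Asns, Fgf16, Ctf1 and Lif were named after their values were seen. For 1 further gene under this rule, values are not reported here. Of the rows named Ddit3, 1 was at 0 in every heart and the other is reported. Poisson intervals and the floor of 3 counts per heart cover counting error only. Start sites, exons and codons are from RefSeq and GENCODE M21.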

Additional observations from a re-analysis of the deposited data

How the results depend on the processing

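Of the 17 alternatives, 16 kept the number of members called higher at 4 or 5, and a minimum mean of 5 FPKM left 2, since only 3 members were then tested. Gdf15 and Fstl1 kept direction and call in all 17, and Fstl3 and Inhba in the 16 that tested them. Inhbb was called in 10 of 16, and missed the threshold without a filter (adjusted p = 0.0767), with the replicate block (0.0765) and without flox replicate 1 or 2 or CKO replicate 1 or 3. Metrnl was not called under any, with log2 changes of -0.25 to -0.04. The number of genes called in all, 1761, was 641 without a filter and 364 to 1794 with 1 heart left out. The labels number the replicates alike in both groups, and with the replicate block 541 genes and 4 members were called. Same-numbered hearts deviated from their group means with correlations of -0.283, -0.137 and -0.192, and no heart correlated best with its own number, so the numbers were not taken to pair the hearts. Alb, the hepatocyte marker, was at a log2 change of -0.0384 without CKO replicate 1 and up to 2.09 with another heart left out. The cause of these differences was not tested. Depth limited Fgf21, Mstn and Fst, and the flox levels of Gdf15, Fstl3, Inhba and Inhbb rest on at most 82 counts per heart.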
